A study of Mus musculus with 2 samples.

Results

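The 10 genes described here are immediate early genes that code for transcription factors and related nuclear proteins: Fos, Fosb, Jun, Junb, Atf3, Egr1, Ier2, Nr4a1, Nr4a2 and Nr4a3. They were taken by symbol from a matrix of 32285 genes, all 10 were found once, and each had at least 10 unique molecular identifiers (UMIs, counts of distinct molecules) over the nuclei kept. The matrix holds single nuclei of tumour-associated macrophages from mammary tumours of mice with the polyoma middle T (PyMT) transgene, backcrossed to the B6 strain. There were 2 samples, 1 of MYC-PyMT mice and 1 of control-PyMT mice. By the title of the series, MYC-PyMT mice carry S100a8-cre and Rosa26-LSL-MYC beside PyMT, so MYC is off until a cre driven by S100a8 acts. Which cells that covers is not given in the sources used here. The MYC-PyMT and control-PyMT mice were alike irradiated at 7 weeks of age, given 3000000 bone marrow cells of Fcgr1-cre-Rosa26LSL-H2B-mCherry/+ donors, switched 2 weeks later to a diet low in protein and kept on it for 6 weeks. Macrophages were sorted by surface markers (CD45, F4/80 and Vcam positive; Siglec-F, Ly6G, B220 and Ly6C negative), and their mCherry-positive, CD11b-negative nuclei were sorted again. The mCherry allele depends on cre driven by Fcgr1, so it marks cells with a history of Fcgr1 expression, and host cells left after irradiation do not carry it. The labels give no MYC allele for the marrow donors. The number of mice behind each sample is not given in the sources used here.

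Barcodes carry 1 of 2 suffixes, here called well 1 and well 2. The labels do not say which genotype is in which well, so MYC-PyMT and control-PyMT were not compared and no p-value or standard error is given. Ratios and calls are between groups of nuclei within a well. Intervals after a value are exact 95% intervals of counting error alone and leave out variation between mice and libraries. Those of levels and ratios count UMIs as independent, so they also leave out variation between nuclei. They are too narrow where few nuclei hold many of the UMIs, also where intervals are said not to overlap. A gene is called higher at a ratio of at least 2 and lower at a ratio of 0.5 or less, with at least 10 UMIs over both sides, which is a rule of size and not a test.

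Immediate early genes are transcribed within minutes of a signal at the cell surface, without new protein synthesis, from factors such as SRF, ELK and CREB that already sit in the nucleus. Fos and Jun proteins pair through leucine zippers to form AP-1, Atf3 is a zipper protein of the ATF/CREB family, and the NR4A proteins are nuclear receptors that act without a classical ligand. In macrophages these genes respond to microbial products and cytokines. They also respond to heat and to tissue digestion and sorting, so heat shock genes were followed beside them.

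Windows before RefSeq gene starts were examined for 8 of the 10 genes. Those of Egr1 and Ier2 were not examined, so the motif counts below say nothing of these 2 genes. The 250 bases before the start of Fos, Fosb, Nr4a1 and Nr4a2 are shown because they bear on a feature the members share, with the CRE half-site in capitals, on either strand (build GRCm38.p6). The windows are chr12:85473640-85473889 on the plus strand for Fos, chr7:19310046-19310295 on the minus strand for Fosb, chr15:101266596-101266845 on the plus strand for Nr4a1 and chr2:57124004-57124253 on the minus strand for Nr4a2.
Fos: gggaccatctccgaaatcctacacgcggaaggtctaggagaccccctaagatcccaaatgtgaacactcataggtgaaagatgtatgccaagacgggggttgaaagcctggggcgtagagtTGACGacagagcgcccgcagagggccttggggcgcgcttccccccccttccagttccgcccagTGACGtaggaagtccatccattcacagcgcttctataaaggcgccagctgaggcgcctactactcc
Fosb: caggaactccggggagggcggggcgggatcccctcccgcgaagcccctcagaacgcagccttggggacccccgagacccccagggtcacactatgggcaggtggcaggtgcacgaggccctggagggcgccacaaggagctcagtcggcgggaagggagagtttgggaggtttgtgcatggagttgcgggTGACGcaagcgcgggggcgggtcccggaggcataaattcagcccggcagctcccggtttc
Nr4a1: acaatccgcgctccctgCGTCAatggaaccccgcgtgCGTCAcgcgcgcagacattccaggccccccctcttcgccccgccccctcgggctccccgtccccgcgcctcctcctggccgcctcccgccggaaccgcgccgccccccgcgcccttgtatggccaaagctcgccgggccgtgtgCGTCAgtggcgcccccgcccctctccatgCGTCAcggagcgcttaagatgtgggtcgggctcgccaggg
Nr4a2: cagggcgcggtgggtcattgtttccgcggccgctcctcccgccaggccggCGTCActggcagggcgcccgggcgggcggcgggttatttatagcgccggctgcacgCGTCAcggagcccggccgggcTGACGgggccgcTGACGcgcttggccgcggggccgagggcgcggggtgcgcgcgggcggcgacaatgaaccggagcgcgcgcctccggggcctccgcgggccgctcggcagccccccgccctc
The CRE half-site, TGACG on either strand, was in 7 of the 8 members' windows, all but that of Jun, against 17.8% of 32851 windows of the same length before RefSeq genes. Nr4a1 and Nr4a2 held 4 matches each, Fos held 2 and Fosb held 1. The full cyclic AMP response element TGACGTCA, which contains the half-site, was in 0 of the 8 windows, against 1.55% of all windows. The AP-1 site TGANTCA was in 0 of 8, against 6.75%. The CArG box, to which SRF binds, was in 0 of 8, against 1.47%. The NR4A monomer site AAAGGTCA was in 0 of 8, against 1.34%. The heat shock element was in 0 of 8, against 0.466%, and the NF-kB site in 2 of 8 (Fos and Fosb), against 3.9%. The TATA box letters TATAAA, on either strand, were in 2 of 8 (Fos and Nr4a2), against 12.4%. In Fos they began 33 bases before the start, and in Nr4a2 164 bases before it and on the other strand. These are letters in a short window and say nothing of binding.

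In the GENCODE vM21 annotation of GRCm38, Fos spans chr12:85473890-85477273, Fosb chr7:19302696-19310051, Jun chr4:95049034-95052222 and Junb chr8:84974484-84978718. Atf3 spans chr1:191170296-191218039, Egr1 chr18:34859823-34864984 and Ier2 chr8:84661331-84662852. The windows of Nr4a1 and Atf3 lie inside these spans, since the RefSeq table uses a start downstream of the first GENCODE one, and that of Nr4a3 overlaps its start by 152 exonic bases. The 3 NR4A genes lie apart, Nr4a1 at chr15:101254269-101274795, Nr4a2 at chr2:57106830-57124003 and Nr4a3 at chr4:48045153-48086447. Jun, Junb and Atf3 each overlap a gene on the other strand (Junos, Prdx2 and Gm24748). Whether counting used strand is not given in the sources used here, so the counts of these 3 genes are less certain than the others.

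The 1838 barcodes held 7381447 UMIs, and 1812 nuclei with 7342649 UMIs passed the filters. Well 1 gave 1377 of these nuclei, with a median of 2493 UMIs, and well 2 gave 435, with a median of 2852. There were 9 barcode sequences that occurred in both wells. Clustering, from which the 10 members, 22 other immediate early genes and 12 heat shock genes were left out, gave 15 clusters. Of these, 6 were macrophage-like (835 nuclei in well 1 and 281 in well 2), with a named state in 4: inflammatory-like (cluster 2, with Il1b, Nlrp3, Il1a, Tnf, Cxcl2, Ptgs2 and Osm), lipid-associated-like (cluster 4, with Gpnmb, Trem2, Atp6v0d2 and Cd9), resident-like (cluster 8, with F13a1, Mrc1, Lyve1, Cd163, Folr2 and Cbr2) and interferon-like (cluster 10). Of the 8 lipid-associated markers, Spp1, Fabp5, Lpl and Mmp12 did not count for cluster 4, while inflammatory Ptgs2 and Osm did. Trem2 and Lpl counted for resident-like cluster 8 as well. Another 4 clusters were epithelial-like (152 nuclei in well 1 and 35 in well 2), although the sort was for macrophages, and 5 stayed unnamed. Unnamed cluster 5, with 157 of its 158 nuclei in well 1, carried 7 epithelial and 0 macrophage markers. It stayed unnamed because its leading genes held the B cell marker Ebf1, and it is not part of the epithelial-like group. The wells held different states: 281 of 284 inflammatory-like nuclei were in well 1 and 105 of 106 resident-like nuclei in well 2, so well and state cannot be told apart, and each ratio stays within a well.

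As a sum over the 10 genes, the members were at their highest level in inflammatory-like nuclei of well 1. Taken singly, only Jun and Egr1 were highest there among the 13 clusters of that well with at least 10 nuclei. The summed level was 7715 CPM (UMIs per 1000000 UMIs of the group) in 281 inflammatory-like nuclei. It was 1553 CPM in 554 other macrophage-like nuclei, a ratio of 4.97 (4.75 to 5.20). All 10 members were called higher, where 7.88% of 10487 genes were called higher and 20.1% lower. The members' median ratio was 5.0, against a median of 0.763 over all genes measured. The inflammatory genes that name this cluster helped to define it and are not a result, but the members did not enter the clustering.

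Among the Fos family, which cannot pair with itself and needs a Jun partner, Fosb stood further apart than Fos. Fosb was at 939 CPM in inflammatory-like nuclei, against 99.2 CPM in other macrophage-like nuclei (ratio 9.47, 8.03 to 11.2). Fos was at 1041 CPM in inflammatory-like nuclei, against 260 CPM in the others (ratio 4.0, 3.57 to 4.50). Their intervals do not overlap. Of the Jun partners, Jun was at 1301 CPM in inflammatory-like nuclei, against 357 CPM (ratio 3.64, 3.29 to 4.02), and Junb at 1136 CPM, against 248 CPM (ratio 4.59, 4.09 to 5.15). Atf3, which in mouse macrophages is known to restrain inflammatory genes, was at 1386 CPM in inflammatory-like nuclei, against 305 CPM (ratio 4.55, 4.10 to 5.05). Over the 10 alternatives run for this comparison it was the 1 member whose ratio went under 2, at 1.95 with each well clustered alone.

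Egr1, a zinc finger factor and a classical SRF target, was at 704 CPM in inflammatory-like nuclei, against 130 CPM in other macrophage-like nuclei (ratio 5.42, 4.64 to 6.35). Ier2, a nuclear protein first known from its induction by serum, had the smallest ratio of the 10: 209 CPM, against 66.7 CPM (3.14, 2.46 to 4.01). The NR4A receptors had larger ratios than either. Nr4a1, which in mice is needed for Ly6C-low monocytes, was at 525 CPM in inflammatory-like nuclei, against 58.8 CPM (ratio 8.92, 7.18 to 11.2). Nr4a3 had the largest ratio, at 452 CPM, against 26.3 CPM (17.2, 12.6 to 23.8). Nr4a2 was scarce on both sides, with 18 UMIs in inflammatory-like nuclei and 3 in the others (23.1 CPM, against 1.68 CPM), and its ratio of 13.7 is loosely set (4.01 to 72.8).

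**Figure D1:**
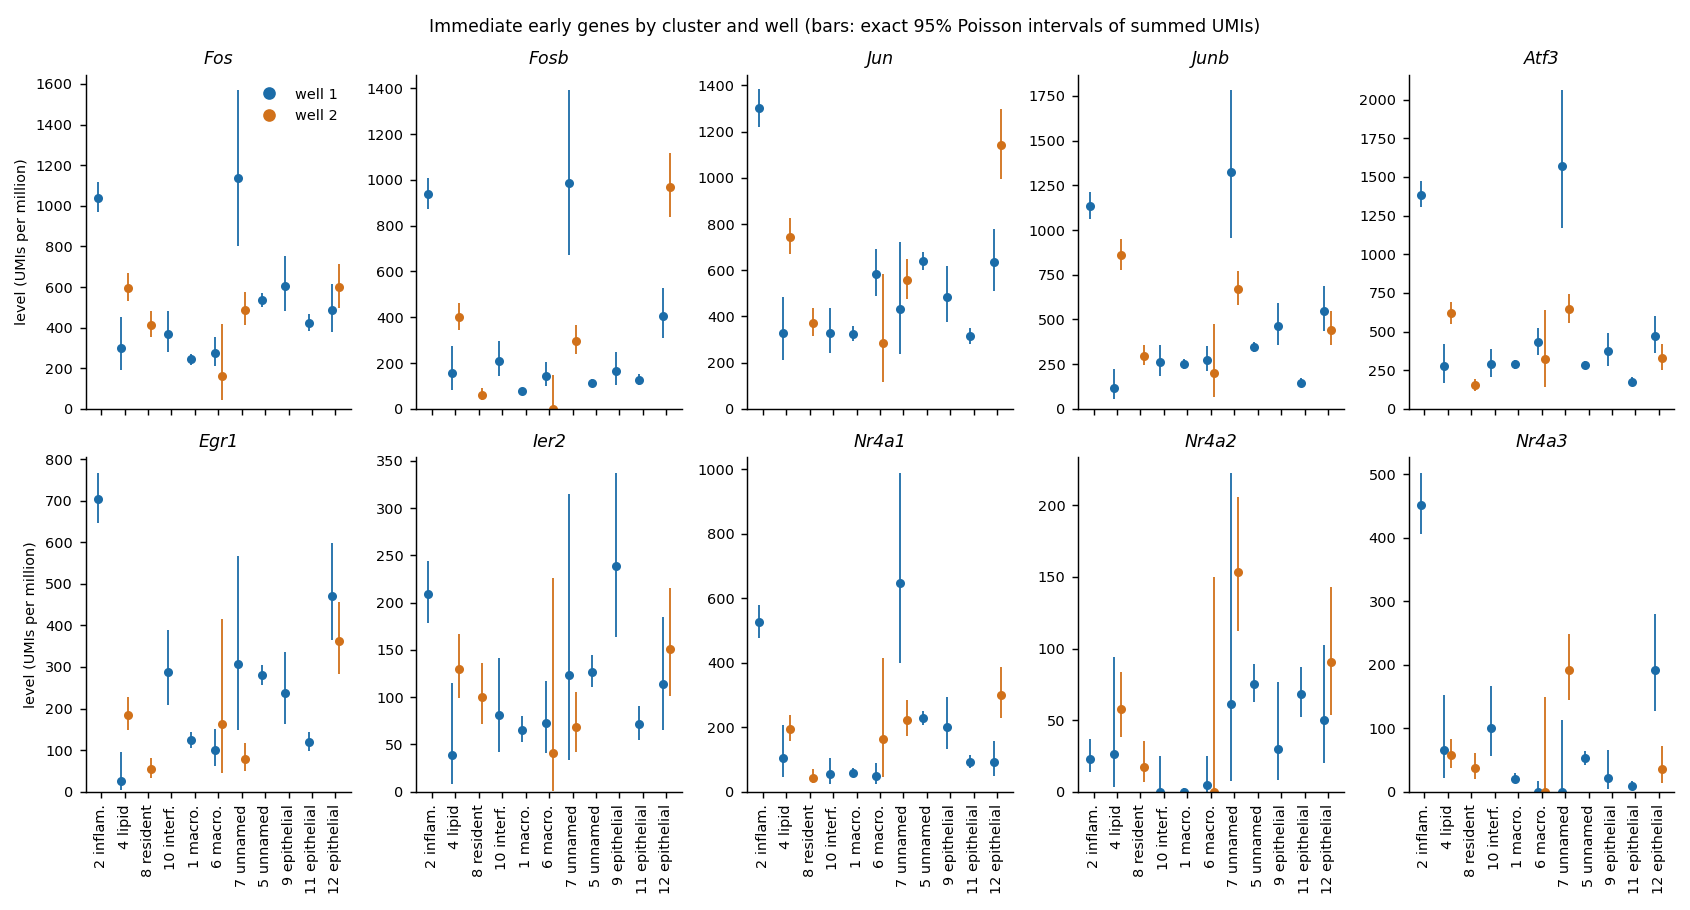
Level of each member in CPM (vertical axis, linear) in the macrophage-like clusters, unnamed clusters 7 and 5 and epithelial-like clusters 9, 11 and 12 (horizontal axis), where a well had at least 10 nuclei; blue points are well 1, orange points well 2, and bars are exact 95% Poisson intervals of the summed UMIs. Inflammatory-like cluster 2 lies above the other macrophage-like clusters in well 1 for every member but Nr4a2, as with Fosb at 939 CPM, and Nr4a2 is at 0 in cluster 1 of well 1.

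UMIs of the members were found in most nuclei of the cluster. With each nucleus thinned to 1000 UMIs, at least 1 member was seen in 96.0% of 252 inflammatory-like nuclei (92.8% to 98.1%), against 52.4% of 531 other macrophage-like nuclei of well 1 (48.0% to 56.7%). Without thinning the shares were 98.6%, at a median of 2479 UMIs, and 79.4%, at a median of 2858 UMIs. Thinning left out 29 inflammatory-like and 23 other nuclei that had fewer UMIs. Free RNA could add to such shares. A UMI of at least 1 of the 10 epithelial markers was in 71.8% of the thinned inflammatory-like nuclei (65.8% to 77.3%). It was in 67.6% of the other macrophage-like nuclei (63.4% to 71.6%) and in 97.3% of epithelial-like nuclei of well 1. Whether these UMIs came from free RNA, from doublets or from the nuclei themselves was not tested. A member UMI in a single nucleus need not come from that nucleus, and the part of free RNA in the members' shares was not tested. The median nucleus showed 4 different members in the inflammatory-like cluster and 1 in the others. At least 3 members were seen in 77.8% of inflammatory-like nuclei (72.1% to 82.8%), against 11.1% of the others (8.57% to 14.1%). In the others the members were concentrated: the tenth of nuclei with the most member UMIs held 54.6% of them, against 24.2% in the inflammatory-like cluster. No nucleus, so thinned, showed more than 8 of the 10.

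**Figure D2:**
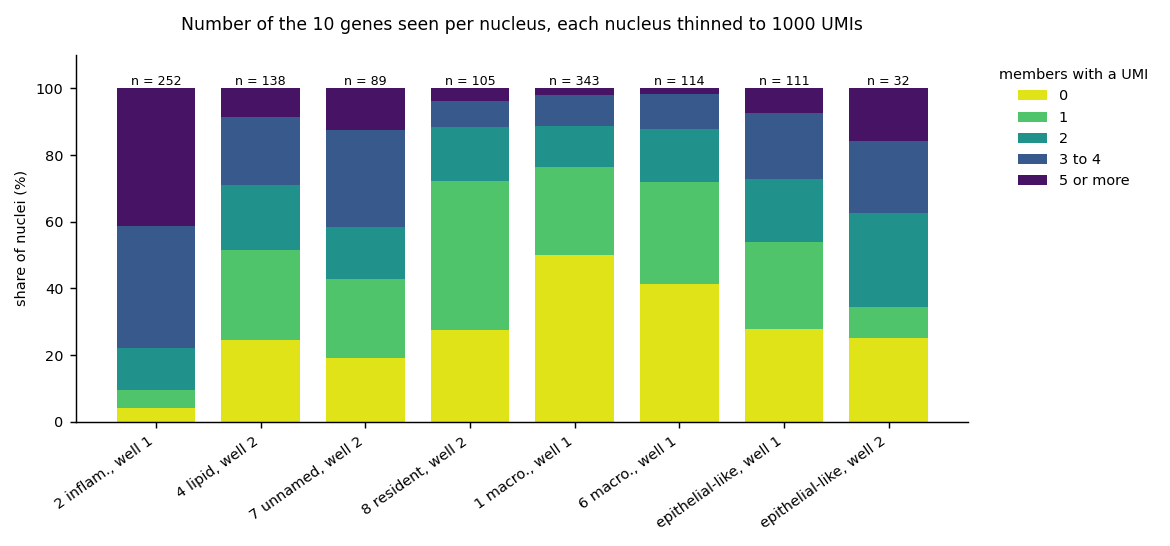
Share of nuclei (vertical axis, percent) in which 0, 1, 2, 3 to 4 or 5 or more of the 10 members had a UMI, after thinning each nucleus to 1000 UMIs, in 8 groups of nuclei; the number of nuclei stands over each bar. In the inflammatory-like cluster 41.3% of nuclei showed 5 or more members, and in resident-like cluster 8 of well 2 3.81% did.

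The share of nuclei with an NR4A gene was set against the number of AP-1 genes seen. In inflammatory-like nuclei thinned to 1000 UMIs, an NR4A UMI was present in 60.0% of the 205 nuclei with 2 or more of Fos, Fosb, Jun, Junb and Atf3 (52.9% to 66.8%), in 51.7% of the 29 with 1 (32.5% to 70.6%) and in 27.8% of the 18 with 0 (9.69% to 53.5%), with intervals that overlap. In other macrophage-like nuclei of well 1 the share was 12.7% with 2 or more (6.96% to 20.8%) and 5.17% with 0 (2.92% to 8.39%), with intervals that overlap. In those of well 2 it was 29.3% with 2 or more (19.7% to 40.4%) and 6.67% with 0 (2.49% to 13.9%), with intervals that do not. The order was not the same everywhere: in macrophage-like cluster 6 of well 1 the shares with 2 or more, 1 and 0 were 3.57%, 6.06% and 5.66%, and in epithelial-like nuclei of well 2 they were 16.7% of 12 with 2 or more and 45.5% of 11 with 1. Over the 45 pairs of members, the median Pearson r across macrophage-like nuclei was 0.31 in well 1 (835 nuclei) and 0.21 in well 2 (281 nuclei). These points share a library and, in part, depth. The pair with the highest r was Jun and Atf3 in well 1 (0.51) and Nr4a2 and Nr4a3 in well 2 (0.47).

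Heat shock genes were high in the same nuclei. Of the 12 heat shock genes, 11 were called higher in inflammatory-like over other macrophage-like nuclei of well 1, with a median ratio of 3.41. Hspa1a, an inducible chaperone, was at 1141 CPM in inflammatory-like nuclei, against 264 CPM (ratio 4.32, 3.86 to 4.84), and Hspa1b, its near-identical neighbour whose reads may be shared with it, at 988 CPM, against 288 CPM (3.43, 3.06 to 3.84). Hsp90aa1 had a ratio of 3.40 (3.20 to 3.61) and Hsp90ab1 one of 3.0 (2.72 to 3.31). The same was seen inside groups: nuclei with 2 or more AP-1 genes carried a mean of 13.1 heat shock UMIs per 1000 in the inflammatory-like cluster and 9.84 in other macrophage-like nuclei of well 1, and those with 0 carried 4.22 and 1.22. Markers of other cells were summed in the same nuclei. The 5 neutrophil markers were at 171 CPM in inflammatory-like nuclei (143 to 202), against 80.1 CPM in other macrophage-like nuclei (67.5 to 94.4). Nearly all of this was Csf3r, the receptor for the growth factor G-CSF, with 130 of 133 UMIs in inflammatory-like nuclei and 138 of 143 in the others, while S100a8, S100a9, Cxcr2 and Retnlg had 0 to 3 UMIs in either group. The 11 macrophage markers were at 3890 CPM in inflammatory-like nuclei, against 4876 CPM in the others. The 10 epithelial markers were at 1464 CPM (1380 to 1551), against 1352 CPM (1299 to 1407). Monocyte, dendritic cell, fibroblast, endothelial and mast cell markers were at 35.9 CPM or less on both sides, and T, NK and B cell markers at 6.42 CPM or less. The part of cell handling, and of other cell types, in the members' levels was not tested.

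The other genes of the early response were high in the same nuclei. Of 22 further immediate early genes, 21 had enough UMIs and 20 were called higher, with a median ratio of 3.95. Btg2, an antiproliferative early gene, had a ratio of 5.90 (5.12 to 6.82), Dusp1, a phosphatase that switches off MAP kinases, one of 4.60 (3.98 to 5.34), Klf6 one of 2.67 and Jund one of 2.50. Genes of the signalling that precedes the response were not high as a group: of 15 measured kinases and SRF or CREB factors, 2 were called higher (Crem and Crtc2) and 2 lower (Mrtfb and Mapk14), with a median ratio of 0.806. Mapk14, which codes for the p38 kinase, was at 486 CPM in inflammatory-like nuclei, against 1049 CPM in the others (ratio 0.464, 0.414 to 0.518). Mrtfa and Crtc3 had ratios of 1.58 and 0.93. The list of zipper genes that can pair with the members shares Jund, Fosl1 and Fosl2 with the further immediate early genes. Counts for these lists, here and below, therefore overlap. Among the 12 measured zipper genes, 5 were called higher. Of these Jdp2, a repressor that pairs with Jun, had a ratio of 7.83 (6.79 to 9.06), while Atf7 had one of 0.83. Crem, Crtc2 and Mrtfb were picked out after their values were seen.

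NF-kB genes and cytokines helped to define the cluster and are given as a description. Of the 12 NF-kB genes 10 were called higher, among them Nfkbia (ratio 5.14), Nfkb1 (3.68), Nfkbiz (3.49) and Rel (2.75). Of 11 measured cytokines 10 were called higher, among them Cxcl2 (27.5), Tnf (8.69), Il1b (4.92) and Ccl4 (4.32). With both lists also left out of the clustering the members' summed ratio was 4.54. A split that uses no clusters of state gave the same direction. Of macrophage-like nuclei of well 1 thinned to 1000 UMIs, the 326 with a UMI of Il1b, Il1a, Nlrp3 or Tnf had 6.43 member UMIs per 1000, against 1.70 in the 457 without.

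That split also worked on either side of the cluster border. Within the inflammatory-like cluster the nuclei with such a UMI had 8.64 member UMIs per 1000 (8.24 to 9.07), against 6.02 in those without (5.40 to 6.68). In other macrophage-like nuclei of well 1 the values were 3.17 with and 1.08 without, and in those of well 2 they were 3.85 with and 2.13 without. In each of these 3 groups the 95% intervals of the nuclei with and without do not overlap. Nuclei without an inflammatory UMI inside the cluster still had more member UMIs than other macrophage-like nuclei with one, in either well.

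**Figure D3:**
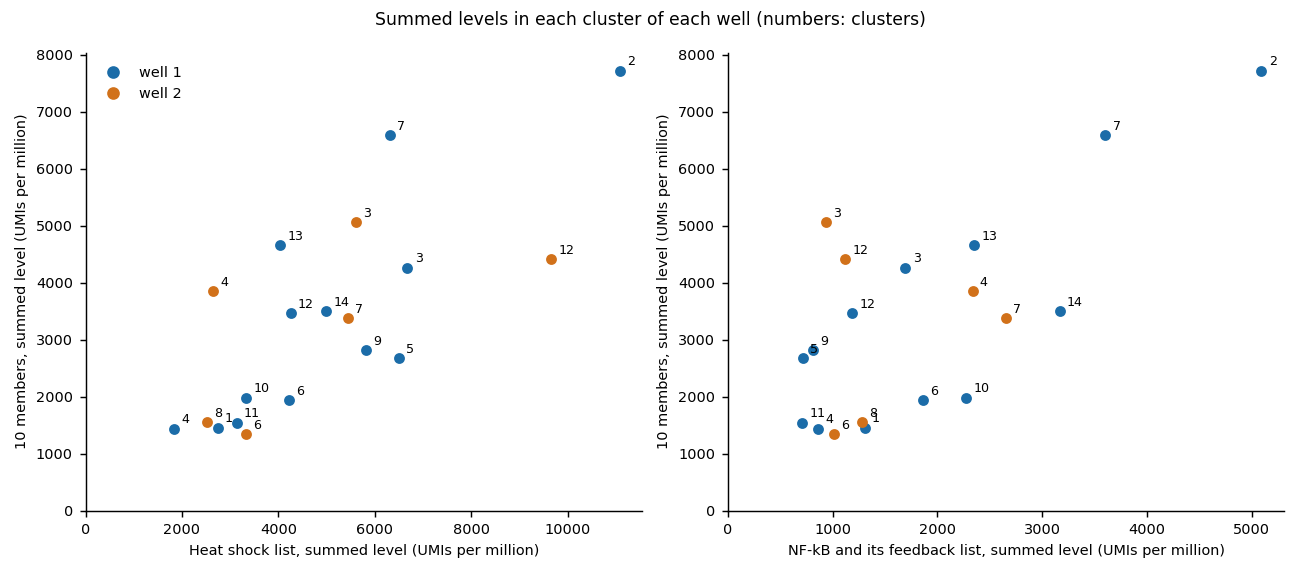
Summed level of the 10 members (vertical axis, CPM) against the summed level of 12 heat shock genes (left) and of 12 NF-kB genes (right), 1 point per cluster and well with at least 10 nuclei, numbered by cluster; blue is well 1 and orange well 2. Cluster 2 is at the top right of both plots, at 7715 CPM for the members and 11078 CPM for heat shock, while cluster 4 of well 2 is at 3846 CPM for the members with 2650 CPM for heat shock.

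Over the 13 clusters of well 1 with at least 10 nuclei, the order of the summed members placed inflammatory-like cluster 2 first (7715 CPM) and unnamed cluster 7 second (6587 CPM). Cluster 7 held as many monocyte as macrophage markers and was led by Olr1 and Flt3, with Ccr2 among its leading genes, and only 11 of its nuclei were in well 1. In it Atf3 was at 1570 CPM (1169 to 2064), Junb at 1324 CPM, Fos at 1139 CPM, Fosb at 985 CPM and Nr4a1 at 646 CPM. These members and Nr4a2, with 2 UMIs, were above cluster 2, but with intervals that overlap those of cluster 2. Jun, Egr1, Ier2 and Nr4a3 were below cluster 2. At the bottom were clusters 6, 11, 1 and 4, at 1935, 1544, 1450 and 1437 CPM. Of the 12 neighbouring pairs in this order, 4 had intervals that do not overlap. For single members 0 to 2 of the 12 pairs did, so most neighbours could not be ranked. Unnamed cluster 3, whose median nucleus had 659 UMIs and which carried macrophage and epithelial markers, was at 4258 CPM in well 1.

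Nr4a2 and Nr4a3 were placed differently from the rest. Nr4a2 had 0 UMIs in the 343 nuclei of macrophage-like cluster 1 in well 1, where up to 2.76 CPM remain possible by the exact interval. It was highest in the unnamed cluster 14, 10 nuclei with T and NK cell markers, at 633 CPM (17 UMIs in 5 nuclei). There Nr4a3 was at 819 CPM (22 UMIs in 3 nuclei), while Fos was at 37.2 CPM from 1 UMI. Nr4a3 was also high in the unnamed cycling cluster 13, at 735 CPM in 18 nuclei. In macrophage-like clusters 1 and 6 of well 1 Nr4a3 was at 20.2 CPM and 0.

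Macrophage-like and epithelial-like nuclei of a well went through the same sort and library. Between them the ratio of the summed members was above 1 in well 1 and below 1 in well 2. The epithelial-like nuclei were spread differently over the clusters in the 2 wells. In well 1 the summed level was 3426 CPM in macrophage-like nuclei, against 1909 CPM in epithelial-like nuclei (ratio 1.79, 1.71 to 1.88). In well 2 it was 2669 CPM in macrophage-like nuclei, against 4139 CPM in epithelial-like nuclei (ratio 0.645, 0.597 to 0.697). The epithelial-like nuclei of well 2 were few, 35, and 27 of them were in cluster 12, at 4415 CPM. In well 1 cluster 11, with 0 nuclei in well 2, held 941002 of the 1223311 epithelial-like UMIs, at 1544 CPM. Unnamed cluster 5, which carried epithelial markers and was not counted here, held 1785612 UMIs in well 1, at 2675 CPM. With cluster 5 counted as epithelial-like, the well 1 ratio was 1.45. Cluster 12 of well 1, with 24 nuclei, was at 3464 CPM (3163 to 3786), an interval that includes the 3426 CPM of macrophage-like nuclei. Well and makeup of the epithelial-like group cannot be told apart here.

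In well 1, 4 members were called higher in macrophage-like nuclei and 1 lower, where 18.2% of 12577 genes were called higher and 34% lower. Those higher were Nr4a3 (156 CPM in macrophage-like nuclei, against 31.1 CPM; ratio 5.01, 3.59 to 7.18), Atf3 (633 CPM, against 231 CPM; 2.75), Junb (518 CPM, against 226 CPM; 2.29) and Fosb (354 CPM, against 162 CPM; 2.19). On the epithelial-like side 27 of the Nr4a3 UMIs came from 1 nucleus of cluster 12, which the interval does not allow for. Nr4a2 was lower, at 8.19 CPM in macrophage-like nuclei, against 62.1 CPM in epithelial-like nuclei (ratio 0.132, 0.0772 to 0.216). Fos, at 497 CPM and 453 CPM, had an interval that includes 1 (0.993 to 1.22). With CPM averaged over nuclei, so that deep nuclei weigh no more than others, 2 members were called higher in place of 4.

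The well 1 result was not there without the inflammatory-like cluster. With that cluster left out, other macrophage-like nuclei were at 1553 CPM for the summed members, against 1909 CPM in epithelial-like nuclei (ratio 0.813, 0.770 to 0.860), with 0 members called higher and 1 lower (Nr4a2), where 17.8% of genes were called higher and 32.6% lower. The inflammatory-like cluster alone had 9 members higher and 1 lower than epithelial-like nuclei, where 16% of genes were called higher and 44.9% lower, and a summed ratio of 4.04 (3.85 to 4.24).

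In well 2, 0 members were called higher in macrophage-like nuclei and 4 lower, where 25.7% of 9992 genes were called higher and 28.1% lower. The lower ones were Fosb (231 CPM in macrophage-like nuclei, against 900 CPM in epithelial-like nuclei; ratio 0.257, 0.211 to 0.314), Egr1 (123 CPM, against 343 CPM; 0.359), Nr4a1 (123 CPM, against 288 CPM; 0.428) and Nr4a2 (38.9 CPM, against 83.5 CPM; 0.466). Jun, at a ratio of 0.510 (0.436 to 0.599), was just short of the rule. Junb had a ratio of 1.37 (1.09 to 1.73), which was 0.642 with no gene left out of the clustering and 0.735 with each well clustered alone. Heat shock genes were lower as well in these macrophage-like nuclei, 10 of 12 by the size rule, with a median ratio of 0.244. In well 1 the heat shock list had 4 higher and 1 lower, at a median of 1.44. At 1000 UMIs per nucleus, 3 or more members were seen in 32.6% of 783 macrophage-like nuclei (29.3% to 36.0%), against 27.0% of 111 epithelial-like nuclei (19.0% to 36.3%) in well 1, and in 19.9% of 267 macrophage-like nuclei (15.2% to 25.1%), against 37.5% of 32 epithelial-like nuclei (21.1% to 56.3%) in well 2. Thinning left out 52 macrophage-like and 41 epithelial-like nuclei of well 1, and 14 and 3 of well 2.

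**Figure D4:**
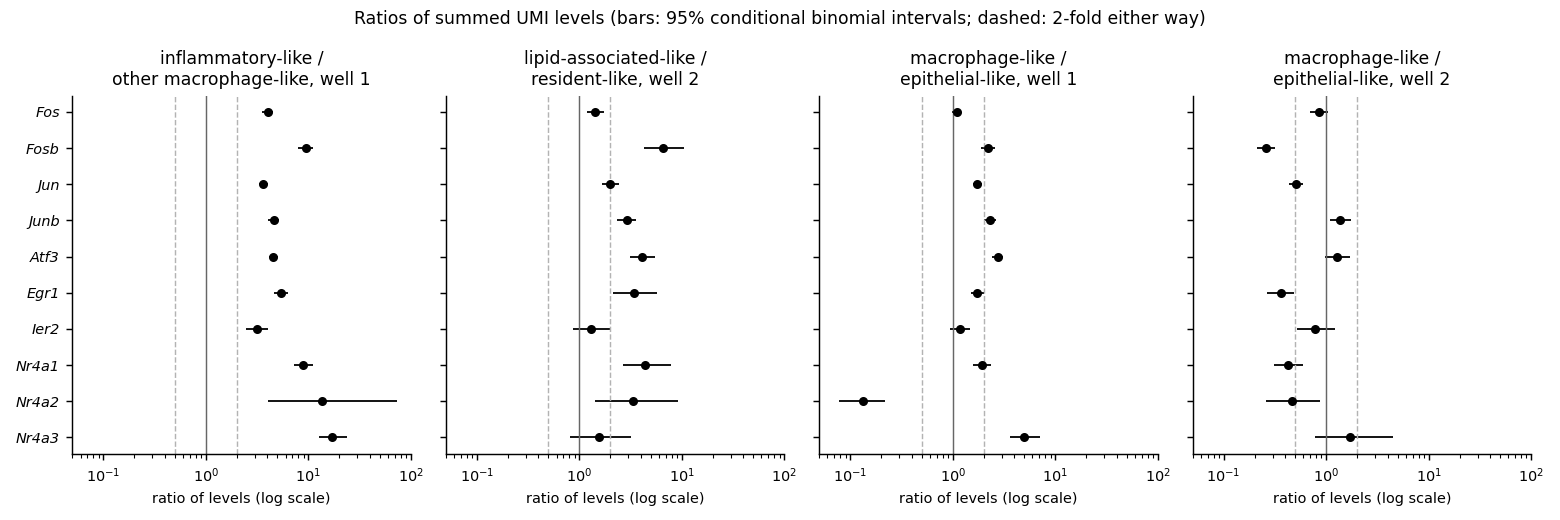
Ratio of the level of each member between 2 groups of nuclei (horizontal axis, log scale), with 95% conditional binomial intervals; dashed lines mark 2-fold either way. All 10 points lie above 2 for inflammatory-like over other macrophage-like nuclei of well 1, 7 do for lipid-associated-like over resident-like nuclei of well 2, and for macrophage-like over epithelial-like nuclei 4 do in well 1 and 0 in well 2.

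Well 2 held 3 inflammatory-like nuclei, and its members differed between 2 other states. In the 146 lipid-associated-like nuclei the summed level was 3846 CPM, against 1547 CPM in the 105 resident-like nuclei (ratio 2.49, 2.27 to 2.73). Of the 10 members 7 were called higher and 0 lower, where 14.3% of 8355 genes were called higher and 13.3% lower. Fosb was at 401 CPM in lipid-associated-like nuclei, against 61.0 CPM in resident-like nuclei (ratio 6.57, 4.31 to 10.4), Nr4a1 at 194 CPM, against 43.9 CPM (4.42, 2.64 to 7.78), and Atf3 at 618 CPM, against 151 CPM (4.09, 3.10 to 5.47). Egr1 had a ratio of 3.45, Nr4a2 one of 3.37 from 27 and 7 UMIs, Junb one of 2.89 and Jun one of 2.01. Fos at 1.44 (1.18 to 1.75), Nr4a3 at 1.57 (0.807 to 3.18) and Ier2 at 1.30 (0.861 to 1.98) were under the rule.

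Beside the members, few heat shock genes were called here. Of 11 measured heat shock genes 1 was called higher (Hspe1), with a median ratio of 1.34, and Hspa1a had 354 CPM in lipid-associated-like nuclei, against 493 CPM in resident-like nuclei (ratio 0.718, 0.581 to 0.886). Hspa1b had a ratio of 0.623, Hsp90aa1 one of 1.34 and Hsp90ab1 one of 1.45. Of 17 further immediate early genes with enough UMIs 8 were higher and 3 lower, at a median of 1.99: Btg2 had a ratio of 2.59, Klf6 one of 1.49, Jund one of 1.29 and Dusp1 one of 0.802. NF-kB genes were higher in 6 of 12, and Rel had the largest ratio of the 4 named by rule, at 3.13, with Nfkb1 at 2.0, Nfkbiz at 1.38 and Nfkbia at 1.20. Cytokines, part of what separates the clusters, were higher in 9 of 10, with Cxcl2 at 9.0, Il1b at 4.66, Tnf at 4.05 and Ccl4 at 2.69. The upstream genes had 1 of 14 higher, and the zipper partners 3 higher and 2 lower of 11, with Jdp2 at 1.55. Hspe1 was picked out after its value was seen. The 11 macrophage markers were at 4300 CPM in lipid-associated-like nuclei, against 8536 CPM in resident-like nuclei, the 5 monocyte markers at 57.5 CPM, against 459 CPM, and the 5 endothelial markers at 57.5 CPM, against 7.32 CPM, and their part in the result was not tested.

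The same lipid-associated-like cluster had 28 nuclei in well 1, and its members there were at 1437 CPM, the lowest of the 13 clusters of that well. These 28 nuclei held lipid-associated markers at 901 CPM and resident markers at 1071 CPM. In the 146 nuclei of well 2 the values were 2035 and 513 CPM, so the name of this cluster fits the well 1 nuclei less well. Junb was at 861 CPM in the nuclei of this cluster in well 2 and at 118 CPM in those of well 1, and Atf3 at 618 CPM and 274 CPM. NF-kB genes were at 2335 CPM in the well 2 nuclei and at 862 CPM in the well 1 nuclei, and heat shock genes at 2650 CPM and 1829 CPM. The wells are separate libraries, and the part of library and of state in this was not tested. When nuclei of well 2 were split by a UMI of Gpnmb or Atp6v0d2 (21 nuclei), against one of F13a1, Mrc1 or Lyve1 (143 nuclei), 6 members were higher and 2 lower (Ier2 and Nr4a3), the summed ratio was 2.21, and Nr4a1 had a ratio of 0.844 (0.258 to 2.17). The share of all genes called in this split was not computed, so no conclusion is drawn from these counts.

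In well 2 as a whole, unnamed cluster 3 had the highest summed level (5062 CPM, 17 nuclei), followed by epithelial-like cluster 12 (4415 CPM), lipid-associated-like cluster 4 (3846 CPM), unnamed cluster 7 (3374 CPM), resident-like cluster 8 (1547 CPM) and macrophage-like cluster 6 (1340 CPM, 15 nuclei). Of these 5 neighbouring pairs 3 had intervals that do not overlap. Cluster 7 had the highest Nr4a3, at 191 CPM, and Nr4a2 was at 154 CPM there, above the 57.5 CPM of cluster 4. At 1000 UMIs, at least 1 member was seen in 75.4% of lipid-associated-like nuclei (67.3% to 82.3%), against 72.4% of resident-like nuclei (62.8% to 80.7%), and 3 or more in 29.0% of lipid-associated-like nuclei (21.6% to 37.3%), against 11.4% of resident-like nuclei (6.05% to 19.1%).

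Across macrophage-like nuclei, the genes outside all lists whose level was most like that of the summed members were, in well 1, Cd83 (Pearson r 0.67), Ifrd1 (0.56), Nfe2l2 (0.53), Rgs1 (0.51), Mpp7 (0.50), Cd86 (0.49), Rasgef1b (0.49) and Neat1 (0.48), among 2897 genes with a median r of -0.07. In well 2 they included Ifrd1 (0.46), Litaf (0.39), Cd83 (0.37), Pim1 (0.36), Sqstm1 (0.35), Lmna (0.35) and Srgn (0.30), among 1137 genes with a median r of -0.04. Ifrd1 and Cd83 were in both lists. Of genes on the lists, Btg2 (0.61) and Hsp90aa1 (0.56) had the highest r in well 1, and Hsp90aa1 (0.38) and Zfp36 (0.35) in well 2. All points of a well share a library, and the values are given as a description.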

How the data were processed

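Nuclei were sequenced with the 10x Genomics 3' kit, version 3, per the labels' protocols. The authors deposited raw UMI counts per gene and barcode, and the submitters' processing notes name Cell Ranger 5.0 (5.0.1 per the file headers) and mm10. Not given in the sources used here are the annotation, the use of strand and whether introns were counted. Introns, if counted, would add UMIs to long genes such as Atf3 (47744 bases).

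Barcodes under 500 UMIs, under 300 genes or over 5% mitochondrially encoded UMIs (21 in all) and 5 Scrublet doublets (0 in well 1, 1.14% in well 2, a low yield that leaves like doublets in) were removed. Log counts scaled to 10000 gave 2000 variable genes, 30 components, 15 neighbours and Leiden clusters at resolution 1 (scanpy 1.11.5, igraph 0.11.9, Python 3.11.15). Members, other immediate early genes and heat shock genes were kept out of the variable genes. A cluster was named from at least 3 markers of a type, each with at least 5 UMIs, 20 CPM and 0.5 of its highest cluster level. Clusters with tied types, leading genes of another type or a median UMI count under 1/3 of their well's stayed unnamed, by rules written after clusters had been seen.

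Levels are summed UMIs per 1000000 (CPM) with exact Poisson intervals, ratios have conditional binomial intervals and shares Clopper-Pearson intervals (scipy 1.17.1). Named genes are the 10 members, of each other list the 4 genes with the most UMIs, and the 8 genes of at least 200 UMIs most correlated with the members; a few genes that this rule names are not reported here. The members and lists were chosen with earlier results of these data known. Calculations were checked on simulated counts. Of the matrix's gene IDs, 32158 were found in GENCODE vM21, and promoter sequences are RefSeq's. With no replicate, no test was made.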

Additional observations from a re-analysis of the deposited data

How the results depend on the processing

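No paired analysis was possible because each genotype has 1 sample, no well is tied to a genotype and no test was made. No replicate could be left out. Of 10 alternatives for inflammatory-like over other macrophage-like nuclei of well 1, 9 or 10 members were called higher in each and 0 lower. The share of all genes called was computed for the main setting alone, so counts of members in the alternatives stand without it. The summed ratio of 4.97 was 4.54 with NF-kB and cytokine genes also left out of the clustering, 6.60 with no gene left out, 5.24 and 3.74 at resolutions 0.5 and 1.5, 3.53 with at least 1000 UMIs per nucleus, 5.74 with doublets kept, 3.11 with each well clustered alone and 3.31 when split by a UMI of Il1b, Il1a, Nlrp3 or Tnf. No doublet had been removed from well 1, so keeping doublets changed this ratio only by changing the clusters. In 8 of the 10 alternatives the summed ratio lay outside the interval of the main setting.

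For macrophage-like over epithelial-like nuclei of well 1, the summed ratio of 1.79 was 1.52 with CPM averaged over nuclei (2 members higher, not 4), 1.5 and 1.48 at resolutions 0.5 and 1.5, 1.46 with at least 1000 UMIs, 1.58 with each well clustered alone, and, chosen after seeing the data, 1.45 with cluster 5 counted as epithelial-like and 1.91 without cluster 9, which was rich in mitochondrial and ribosomal UMIs. In well 2 the ratio of 0.645 was 0.337 with no gene left out and 0.396 with each well clustered alone, and 1 member was called higher, not 0, with averaged CPM and with NF-kB and cytokine genes left out. Resolutions 0.5 and 1.5 and the 1000 UMI limit gave well 2 no value.

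The lipid-associated-like ratio of 2.49, a comparison added after seeing the data, was 1.98 with averaged CPM and 2.21 in the split by single markers (2 members lower; Nr4a1 at 0.844). The lipid-associated-like cluster was not found with no gene left out, at resolutions 0.5 and 1.5, with at least 1000 UMIs or with wells clustered alone, so no value exists there.

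Shares follow depth. With at least 1 member, macrophage-like and epithelial-like nuclei made up 66.4% and 72.1% in well 1 and 72.7% and 75.0% in well 2 at 1000 UMIs, 79.9% and 84.6%, and 80.0% and 92.6%, at 2000 UMIs, and 85.9% and 85.5%, and 88.3% and 91.4%, unthinned. With at least 3 members, the well 1 order at 1000 UMIs was reversed at greater depth. The shares with at least 3 members in well 1 were 41.6% and 48.7% at 2000 UMIs and 49.6% and 53.3% unthinned, and in well 2 34.8% and 66.7%, and 45.9% and 65.7%. That of macrophage-like nuclei of well 2, 19.9%, was 9.05% with no gene left out, 10.7% at resolution 1.5 and 15% with at least 1000 UMIs. The causes were not tested. Ratios of single members were on the other side of 1 in at least 1 alternative for 0 of 10 members in the inflammatory-like comparison, 2 (Fos and Ier2) and 3 (Atf3, Junb and Nr4a3) in the macrophage-like over epithelial-like comparison of wells 1 and 2, and 4 (Fos, Ier2, Nr4a1 and Nr4a3) in the lipid-associated-like one. Of these Nr4a1 was the 1 that had been called.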
